A study of Mus musculus with 15 samples.

Results

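The probes of mouse chromosome 15 (Chr15) on an array for comparative genomic hybridisation were examined, in order of position, in liver tumours and unaffected livers. They are the non-control probes that the array files place on Chr15, 1631 of 42404 probes, and this chromosome was taken up with earlier results of these data known. In this assay the DNA of a tissue and that of a reference, each with its own dye, bind to the same probes, and the log2 ratio of tissue over reference follows the copy number of the DNA that a probe matches. Tumours called hepatocellular carcinomas (HCC, n = 5) and unaffected livers (n = 3) came from 3 mice with the alleles Mad2flox, p53flox and AlbuminCre on a background that the labels and the study give as a mix of C57BL/6 and 129. In these mice Cre recombinase driven by the Albumin promoter deletes floxed alleles in hepatocytes, so that other cells of the liver keep them. Mouse 3151, a female aged 16.4 months with the genotype Mad2(f/f) p53(f/+), gave HCC 1, HCC 2 and unaffected liver 1. Mouse 3760, a male aged 13.8 months with Mad2(f/f) p53(f/f), gave HCC 3 and unaffected liver 2. Mouse 4033, a male aged 13.9 months of the same genotype as mouse 3760, gave HCC 4, HCC 5 and unaffected liver 3. The unaffected livers therefore carry the same engineered alleles as the tumours beside them, and sex, p53 genotype and mouse cannot be told apart. Reference DNA came from normal liver of the opposite sex, from mice of that mixed background that were wild type per the study.

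Mad2l1, called Mad2 in the labels, belongs to the spindle assembly checkpoint, which holds cells in mitosis until all chromosomes are attached to the spindle. Cells without the checkpoint missegregate whole chromosomes, so gains and losses of entire chromosomes are the class of event that such a model is built to show. Mouse Chr15 carries the oncogene Myc, a transcription factor that drives cell growth, as well as clusters of keratin, Hoxc, Ly6 and cytochrome P450 genes.

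Chr15 probes ran from position 3229082 to 103395462 with a median gap of 21.6 kb, and 1380 of them carried 1 of 795 gene names of the array design. They were 45 to 60 bases long, and the median GC content was 36.7% both from 83 Mb onwards and before it. Positions are those of the files, which do not name a genome build. For 5 Chr15 probes found whole in RefSeq promoter sequences of GRCm38.p6, the file position lay 169569 or 169570 bases from the position in that build, so the coordinates here are not GRCm38 coordinates.

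The sequences below belong to the 6 probes on either side of the level step of HCC 2 described further on, in order along the chromosome. All are in lower case because hybridisation uses the whole probe and no base is singled out.
Tcf20, left of the step, chr15:82650807-82650866: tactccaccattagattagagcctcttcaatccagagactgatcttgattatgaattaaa
Tcf20, left of the step, chr15:82667423-82667482: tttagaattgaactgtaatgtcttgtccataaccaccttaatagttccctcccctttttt
Tcf20, last probe before the step, chr15:82696593-82696652: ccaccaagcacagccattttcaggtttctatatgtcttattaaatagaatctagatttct
Tcf20, first probe after the step, chr15:82728343-82728402: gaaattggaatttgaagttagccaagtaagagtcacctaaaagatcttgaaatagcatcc
Tcf20, right of the step, chr15:82736128-82736182: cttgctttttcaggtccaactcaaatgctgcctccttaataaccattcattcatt
Nfam1, right of the step, chr15:82830145-82830204: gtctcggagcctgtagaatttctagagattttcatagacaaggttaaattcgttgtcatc

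The next sequences are the single Myc probe and 4 probes whose ratio stood far from the rest of Chr15 in an unaffected liver, shown because their values differ between mice or between tumours of 1 mouse.
Myc, chr15:61818043-61818102: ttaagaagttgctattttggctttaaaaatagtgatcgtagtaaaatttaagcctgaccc
Ugt3a1, chr15:9231347-9231406: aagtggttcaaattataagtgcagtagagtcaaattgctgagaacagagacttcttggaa
Lrp12, chr15:39756090-39756149: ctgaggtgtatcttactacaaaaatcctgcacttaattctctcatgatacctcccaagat
probe with no gene name, chr15:80057030-80057089: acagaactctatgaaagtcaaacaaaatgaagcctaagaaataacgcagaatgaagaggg
Cyb5r3, chr15:82994791-82994850: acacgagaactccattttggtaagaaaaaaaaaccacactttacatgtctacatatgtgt

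The DNA was hybridised on 15 arrays, in both dye orientations for 7 tissues and in the forward orientation alone for HCC 3. Between 0 and 8 Chr15 spots per array had an outlier mark, 0.24% to 1.68% were not well above background, and none was saturated. The median ratio of Chr15 signal to background was between 4.60 and 9.86 in the green channel and between 3.87 and 11.3 in the red. Mad2l1 and Trp53 (called p53 in the labels) had 1 probe each, on other chromosomes. The Mad2l1 log2 ratio was -1.22, -0.71, 0.08, 0.53 and 0.59 in HCC 1 to HCC 5 and 0.01, 0.36 and 0.69 in unaffected livers 1 to 3. It was below the liver of the same mouse in 5 of 5 HCC, but only slightly in HCC 4 and HCC 5, where it was above the reference. The Trp53 log2 ratio was -1.06, -1.14, -0.19, -2.07 and -2.03 in these tumours and -0.07, -0.88 and -0.72 in the livers, below the own liver in 4 of 5 with HCC 3 as the exception. Whether these probes lie in the deleted exons was not examined.

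The first question was how much Chr15 DNA each tissue held. Chr15 was higher in every HCC than in every unaffected liver, along nearly its whole length in 4 tumours and mainly in its distal part in HCC 2. The mean log2 ratio of Chr15 probes, called its level, came to 0.50, 0.33, 0.36, 0.72 and 0.56 in the order HCC 1 to HCC 5. Unaffected livers 1 to 3 had levels of -0.000185, 0.082 and 0.014. The groups did not overlap, but Chr15 was not alone in this order among the 19 autosomes. On Chr18 the levels were 0.30, 0.17, 0.32, 0.43 and 0.40 in HCC 1 to HCC 5 and 0.079, 0.071 and 0.033 in the livers. On Chr16 they were 0.21, 0.38, 0.29, 0.022 and 0.061 in the tumours and -0.017, -0.0088 and -0.012 in the livers. Every HCC was thus above every liver on these 2 autosomes as well. On a linear scale the Chr15 levels of HCC 1 to HCC 5 were 1.42, 1.25, 1.29, 1.65 and 1.47 times the reference. A ratio of 3 copies to 2 in every cell would give a log2 ratio of 0.58. The Chr15 level lay above it in HCC 4 alone and below it in HCC 1, HCC 2, HCC 3 and HCC 5. In bulk DNA, the number of extra copies and the share of cells that carry them cannot be told apart.

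The 5 HCC averaged 0.49 ± 0.16 (SD, n = 5) and the 3 livers 0.03 ± 0.04 (SD, n = 3). The groups thus differed by 0.46 (SE 0.12, limma over 19 autosomes, adjusted p = 0.00775). It was the single autosome called higher, which is 5.26% of the 19 tested. In the same order of tumours, the level minus that of the own liver was 0.50, 0.33, 0.28, 0.70 and 0.54. The pairs of dye orientations differed by 0.0028 to 0.084 in the 7 tissues that had both, and the largest of these differences was in unaffected liver 1. Tissues shared slides and scan days. Within the 3 slides that held both groups the difference was 0.28, 0.54 and 0.72, and it was 0.41 on scan day 1 and 0.52 on scan day 2. The call was lost when any 1 of the 3 unaffected livers was left out (limma adjusted p = 0.102, 0.0576 and 0.0925 without unaffected liver 1, 2 and 3), and with arrays centred on the mode in place of the median (0.41, limma adjusted p = 0.051).

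The log2 ratio was above 0 at 96.9%, 90.3%, 97.2%, 98.5% and 99.0% of Chr15 probes in HCC 1 to HCC 5. The livers had 53.5%, 82.5% and 59.7%. The share of probes above 0.3 was 86.2%, 51.8%, 60.3%, 95.0% and 95.1% in the same tumours and 1.35% to 4.78% in the livers. Unaffected liver 2 stood above the other livers, and Chr15 was the highest of its 19 autosomes although its level was 0.082.

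Whether the rise was particular to Chr15 was examined against the other autosomes of the same tissue, a measure that the centring of an array does not move. Chr15 exceeded the mean of the other 18 autosomes by 0.50 ± 0.17 (SD, n = 5) in the tumours, against 0.04 ± 0.04 (SD, n = 3) in the livers (difference 0.46, exact permutation p = 0.0179, two-sided, the smallest that 56 splits give). Without HCC 1 or HCC 3 the call was lost (exact permutation p = 0.0571 for each), and with the tumours of a mouse averaged the difference was 0.44 (exact permutation p = 0.25, the smallest that 3 mice give). It ranked first of 19 autosomes in HCC 1, HCC 3, HCC 4 and HCC 5, and in HCC 2 it ranked below Chr12 at 0.56 and Chr16 at 0.38. Chr18 was the autosome most like it. Chr15 minus Chr18 was 0.20, 0.15, 0.04, 0.29 and 0.16 in HCC 1 to HCC 5, and -0.080, 0.011 and -0.019 in the unaffected livers (difference 0.20, exact permutation p = 0.0179, adjusted p = 0.0357 over 2 comparisons). That call is lost when HCC 1, HCC 2, HCC 4, HCC 5 or unaffected liver 1 is left out (exact permutation p = 0.0571, and 0.0952 without unaffected liver 1), and over 3 mice the difference was 0.18 (exact permutation p = 0.25). Chr15 minus Chr16 was 0.26 higher in HCC, a difference within the spread between tumours (exact permutation p = 0.25), since Chr16 was near 0 in HCC 4 and HCC 5 and exceeded Chr15 in HCC 2.

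The distal end was compared with the rest of the chromosome next. The boundary near 83 Mb was taken from HCC 2 in earlier results of these data, so the values of HCC 2 describe it and are no test. In HCC 2 the mean log2 ratio was 0.60 over the 559 probes from 83 Mb and 0.18 over the 1072 probes before them, which correspond to 1.51 and 1.14 times the reference. Taken alone, the forward array gave 0.45 and the dye swap 0.39 for this difference of 0.42. In the other tumours the distal part minus the rest came to -0.0045 (HCC 1), -0.029 (HCC 3), 0.013 (HCC 4) and -0.012 (HCC 5), and in the unaffected livers to 0.0046, -0.022 and 0.0079. All 7 lay within 0.03 of 0. With HCC 2 left out the difference between HCC and unaffected liver was -0.0048 (exact permutation p = 0.714, two-sided, 35 splits). With it the difference was 0.08, given without a test.

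Set against the other tumours, with arrays centred on the median, HCC 2 was low before the boundary. Its distal mean of 0.60 lay inside the range of the other tumours, 0.35 to 0.73, whereas its mean over the rest, 0.18, lay below their range of 0.37 to 0.71. The mean over the rest was still above that of all 3 unaffected livers, which was -0.0018, 0.090 and 0.012. HCC 1, from the same mouse, had 0.50 in both parts. With arrays centred on the mode, the level of all Chr15 was 0.42 in HCC 2. It was then 0.40, 0.38, 0.69 and 0.31 in HCC 1, HCC 3, HCC 4 and HCC 5. The place of HCC 2 among the tumours in the level of all Chr15 thus depends on the centring. Mode centring took 0.10, -0.097, -0.012, 0.034 and 0.24 off the levels of HCC 1 to HCC 5, alike in both parts of Chr15. With these shifts taken off, the mean over the rest was still lowest in HCC 2, and its distal mean came close to that of HCC 4. Without HCC 2, distal and other probes were higher in HCC by 0.50 and 0.51 (exact permutation p = 0.0286 for each, the smallest that 35 splits give).

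The place of the step was sought by the single split of Chr15 that leaves the least squared error. In HCC 2 it fell between chr15:82696593-82696652 and chr15:82728343-82728402, a gap of 31.7 kb, with 1060 probes before it and 571 after it. Probes on both sides of that gap carried the name Tcf20, a transcription factor gene. The dye swap, normexp background correction and the difference from unaffected liver 1 gave the same gap, and the forward array placed it 2 probes earlier, before position 82667423. Over the 10 probes on each side, the mean was 0.16 ± 0.088 (SD) before the step and 0.56 ± 0.21 (SD) after it. The split took up 41.4% of the variance among Chr15 probes in HCC 2 and 0.274% to 1.55% in the other 7 tissues. The distal side of the step measured 20.7 Mb.

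Segmentation found few other steps once the liver of the same mouse was subtracted. HCC 1, HCC 3 and HCC 4 then had no breakpoint on Chr15. HCC 2 had 2, one at the step and one between positions 75395712 and 75429566, where the mean fell from 0.21 to 0.13 before it rose to 0.59. HCC 5 had 1, after position 76539772, across which the mean changed from 0.56 to 0.53. Against the reference the same 5 tumours had a mean of 3.4 breakpoints, which fell to 0.8 with normexp correction, and the unaffected livers had 2, 2 and 13.

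Along the chromosome, 21 bins of 5 Mb held at least 5 probes. All 21 had a higher mean in HCC, by 0.41 to 0.54 with a median of 0.45, against a median of 0.04 over 497 autosomal bins. At an unadjusted limma p under 0.05 all 21 were higher, where 8.25% of the 497 were. In 4 bins, from 85 to 105 Mb, the difference passed the threshold (limma adjusted p = 0.0306 for each), while 0.805% of all bins did. The largest differences were 0.54 at 90 to 95 Mb and 0.52 at 85 to 90 Mb. The smallest were 0.41 at 35 to 40 Mb and 0.41 at 45 to 50 Mb (limma adjusted p = 0.0749 and 0.0822). In the bin at 90 to 95 Mb the log2 ratio was 0.54, 0.62, 0.28, 0.75 and 0.59 in HCC 1 to HCC 5 and -0.028, 0.096 and -0.011 in the livers. In the bin at 35 to 40 Mb it was 0.49, 0.12, 0.35, 0.63 and 0.50 in the tumours and -0.033, 0.10 and -0.040 in the livers. The 2 bins differ in HCC 2, which had 0.62 in the former and 0.12 in the latter.

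The number of bins that passed moved with single tissues. It was 21 of 21 without HCC 2, where 63 of all bins passed, and 20 without HCC 5. It was 0 without HCC 4 and without any 1 of the unaffected livers, and was 4 without HCC 1 and without HCC 3. With mouse as a block, 15 Chr15 bins passed. All 5 HCC lay above all 3 livers in 20 of 21 Chr15 bins, where 11.1% of all bins have that order. The bin means of HCC 1 spanned 0.44 to 0.71, those of HCC 2 0.094 to 0.62, those of HCC 3 0.26 to 0.49, those of HCC 4 0.51 to 0.77 and those of HCC 5 0.49 to 0.62. HCC 2 had 7 bins above 0.3 and HCC 3 had 19, and the other 3 tumours had all 21.

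Probe by probe, the difference between HCC and unaffected liver ran from -0.40 to 0.87 with a median of 0.47, and it was above 0 at 1627 of the 1631 probes. No probe passed after adjustment over 40720 autosomal probes (limma, lowest adjusted p on Chr15 0.309). At an unadjusted limma p under 0.05, 1371 Chr15 probes were higher and 0 lower, where 5.34% of all probes were higher and 2.06% lower. The 5 HCC lay above the 3 livers at 1057 probes, an order that 5.3% of all probes have.

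Gene by gene, all 795 names on Chr15 had a higher mean in HCC, by 0.07 to 0.87 with a median of 0.47, against a median of -0.01 over 19971 names on all autosomes. No Chr15 gene passed after adjustment over those names (limma, lowest adjusted p = 0.19), and none did on any autosome. At an unadjusted limma p under 0.05, 716 of the 795 were higher and 0 lower, where 5.75% of all names were higher and 2.37% lower. The 5 HCC lay above the 3 livers at 592 names, where 6.06% of all names have that order. The lists below were chosen with earlier results of these data known, and neighbouring genes share their copy number, so the counts are a description. The list names are headings, and not every member is an established gene of that function. Examples are Dip2b under segregation and repair and Ext1 under transcription and chromatin. The medians of the 6 lists, 0.43 to 0.48, lay near the 0.47 of all Chr15 names.

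The list on growth and the neighbourhood of Myc had 17 names on the array, all before 83 Mb. Of these 16 were higher at an unadjusted limma p under 0.05, and the median difference was 0.44. Its median in HCC 2 was 0.22, against 0.56, 0.37, 0.75 and 0.62 in the other tumours. Myc was covered by 1 probe, with log2 ratios of 0.72, -0.068, 0.49, 0.91 and 0.46 for HCC 1 to HCC 5 and of -0.24, 0.0069 and 0.020 for the livers. All tumours but HCC 2 stood above the 3 livers, and HCC 2 lay below unaffected livers 2 and 3 but above unaffected liver 1 of its own mouse. All 5 HCC were thus above their own liver. The difference was 0.57 (SE 0.19, limma adjusted p = 0.32). The arrays of HCC 1 did not agree at this probe, with 0.0081 on the forward array and 1.44 on the swap. Trib1, a pseudokinase gene of the list, had 0.67, 0.30, 0.24, 0.77 and 0.63 in the tumours and -0.44, 0.03 and 0.04 in the livers (difference 0.65, limma adjusted p = 0.19). Skp2, the substrate receptor of a ubiquitin ligase of the cell cycle, had the smallest difference of the list, 0.29 (limma adjusted p = 0.63), over 3 probes.

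The list on chromosome segregation, cohesion and DNA repair had 17 names, 11 of them from 83 Mb on. All 17 were higher at an unadjusted limma p under 0.05, with a median of 0.48. In HCC 2 the median of this list was 0.56, above that of 0.30 for all Chr15 names, in contrast to the list around Myc. This contrast restates the step of HCC 2, since most of this list lies beyond the boundary and the list around Myc before it. Smug1, a uracil DNA glycosylase of base excision repair, had 0.65, 0.57, 0.26, 1.02 and 0.61 in HCC 1 to HCC 5 and -0.45, 0.10 and 0.02 in the livers (difference 0.73, limma adjusted p = 0.19). All 5 tumours stood above the livers, of which unaffected liver 1 was low. Dip2b differed by 0.58 and Tuba1a, an alpha-tubulin, by 0.36 (limma adjusted p = 0.19 and 0.39).

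Genes of liver function had 21 names, of which 18 were higher at an unadjusted limma p under 0.05, with a median difference of 0.46. Vdr, the vitamin D receptor, had 0.61, 0.55, 0.39, 0.81 and 0.57 in the tumours and -0.051, 0.060 and -0.037 in the livers, without overlap (difference 0.59, SE 0.13, limma adjusted p = 0.19). Adcy6, an adenylyl cyclase, differed by 0.57 (limma adjusted p = 0.31), although HCC 3 was at -0.024 there. Cyp2d26, a cytochrome P450 gene that lies before the step, had the smallest difference, 0.30 (limma adjusted p = 0.64). It was 0.18 in HCC 2, below unaffected liver 1 at 0.23.

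Of 17 ligand and receptor genes, 16 were higher at an unadjusted limma p under 0.05, with a median of 0.43. The Wnt ligand gene Wnt1 had 0.72, 0.57, 0.36, 0.60 and 0.57 in the tumours and -0.43, 0.03 and -0.04 in the livers (difference 0.71, limma adjusted p = 0.19). Wnt7b, with 2 probes, had 0.56, 0.57, 0.42, 0.67 and 0.60 against 0.03, -0.05 and -0.04 (difference 0.58). Among the tumours HCC 3 was lowest at both genes, and no tumour overlapped a liver. Acvrl1, a receptor of the TGF-beta family, differed least, by 0.23 (limma adjusted p = 0.70), and was -0.11 in HCC 2 although it lies in the distal part. It was measured by 1 probe.

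The transcription and chromatin list had 15 names, all higher at an unadjusted limma p under 0.05, with a median of 0.44. Cbx5, which encodes a heterochromatin protein, differed by 0.61 and Rarg, a retinoic acid receptor, by 0.53, over 3 probes each (limma adjusted p = 0.19). Zfpm2, a cofactor of GATA factors, differed by 0.31 (limma adjusted p = 0.60), as its log2 ratio was also 0.34 and 0.28 in unaffected livers 2 and 3. Of 48 genes in clustered families, 43 were higher at an unadjusted limma p under 0.05, with a median of 0.48. Within the keratin cluster, whose genes encode intermediate filaments of epithelia, the 1-probe genes Krt2 and Krt83 differed by 0.71 and 0.67 and Krt5 by 0.22. Low livers add to the 2 large differences. Unaffected livers 1 to 3 were at -0.29, -0.057 and -0.15 at Krt2 and at -0.32, 0.070 and 0.13 at Krt83, while the HCC means were 0.54 and 0.63. Krt5 had 0.09, -0.0014, 0.45, 0.36 and 0.07 in the tumours, so that HCC 1, HCC 2 and HCC 5 were near the livers there.

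Among names with at least 2 probes, the 5 smallest p-values were at Celsr1, Tbc1d22a, AK007269, AK147562 and Arid2, all in the distal part. Their place is a description and no test, since the boundary was taken from HCC 2, which is higher beyond it. Their differences were 0.63 to 0.67 (limma adjusted p = 0.19 for each). Celsr1, a cadherin gene of planar cell polarity, had 0.79, 0.51, 0.49, 0.65 and 0.51 in HCC 1 to HCC 5 and -0.12, -0.038 and -0.071 in the livers. Arid2, a subunit of a chromatin remodelling complex, had 0.65, 0.70, 0.43, 0.81 and 0.69 against -0.080, 0.11 and 0.058 over 4 probes. At both genes the lowest tumour stood well above the highest liver. The 5 smallest differences were at Lrp12 (0.07), Cyb5r3 (0.22), Kdelr3 (0.23), AK053274 (0.24) and Tmem117 (0.24), none of them past the threshold (limma adjusted p from 0.70 to 0.95). Lrp12, Cyb5r3 and AK053274 each hold a probe that stood far from the rest of Chr15 in an unaffected liver, as described next.

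Single probes stood far from their neighbours, at some places alike in all tissues of a mouse and at others not. In 9 of 1631 Chr15 probes (0.552%) the log2 ratio of at least 1 unaffected liver lay 1 or more from the Chr15 median of that liver, against 0.819% of the 39095 probes of the other autosomes. With the tumours counted as well, 35 Chr15 probes lay that far in at least 1 tissue. In HCC 1 to HCC 5 the share on Chr15 was 0.67%, 0.86%, 0.18%, 1.04% and 0.55%. On the other autosomes, each against its own median, it was 0.39%, 0.41%, 0.39%, 0.50% and 0.35%. The 9 probes far in a liver are described below. The threshold of 1 was chosen after the values were seen, and these values have no test. Segmentation against the reference reported 8 local segments of 5 to 17 probes on Chr15, and 7 of them contained at least 1 of the 9 probes. Without these probes the segment mean lay within 0.3 of the Chr15 median in 6 of the 7. The exception was chr15:31529935-33529309 in HCC 2, a stretch of 17 probes from Cct5 to AK016384 that includes Sema5a, Sdc2 and Pgcp. With its Cct5 probe, which was at -2.08, its mean in HCC 2 was -0.17, between 0.23 before it and 0.16 after it. It was then -0.67 from the Chr15 median on the forward array and -0.33 on the swap. Without the Cct5 probe the stretch was -0.37 from that median, where the segments before and after it were at -0.087 and -0.16. The Chr15 median of HCC 2, 0.32, lay between its means of 0.18 before the step and 0.60 after it. Probes before the step thus tended to lie below that median, and part of the -0.37 is shared with the neighbours. Unaffected liver 1, of the same mouse, was low there too, with a mean of -0.23. Without the Cct5 probe this liver was -0.13 from its own Chr15 median, and HCC 1 and HCC 4 were each -0.14 from theirs. HCC 3, HCC 5 and unaffected livers 2 and 3 were at -0.0092, -0.076, -0.025 and -0.080. With unaffected liver 1 subtracted, segmentation of HCC 2 did not report this stretch. The 1 segment with no such probe, chr15:18861177-20654386, was found in unaffected liver 3 at -0.30. Its probe with no gene name at chr15:19014913-19014972 was -0.81 from the Chr15 median there, short of the threshold of 1, while its Cdh10 probe had a log2 ratio of -0.04. The unnamed probe had 1.16, 0.76, 0.42, -0.16 and -0.14 in HCC 1 to HCC 5. Unaffected livers 1 to 3 had 0.49, 0.21 and -0.79 at it.

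The Lrp12 probe, which lies in a gene of the low density lipoprotein receptor family, had log2 ratios of -2.48 and -2.78 in the tumours of mouse 3151 (HCC 1 and HCC 2) and of -2.53 and -2.64 in those of mouse 4033 (HCC 4 and HCC 5). The livers of these mice were at -2.12 and -2.66. Mouse 3760 had 0.40 in HCC 3 and -0.025 in its liver. The low values were shared by tumour and liver of mice 3151 and 4033 and absent from mouse 3760. The tissue signal was not well above background on 1 of 2 arrays in HCC 1 and HCC 2 and on both in HCC 4, HCC 5 and unaffected livers 1 and 3, so the size is a bound there, and normexp correction gave -0.47 to -0.76 for these 6 tissues. The arrays differed in size here, with -3.34, -3.99 and -3.63 on the forward arrays of HCC 1, HCC 2 and HCC 4 and -1.62, -1.57 and -1.42 on their swaps. The second Lrp12 probe did not have it, and the low gene mean in 4 tumours (-1.17 to -0.76) is made by this 1 probe.

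At the Ugt3a1 probe, in a gene of the glucuronosyltransferase superfamily, the mice stood on opposite sides of 0. Mouse 3151 had 1.24 in HCC 1, 0.76 in HCC 2 and 0.56 in its liver. Mouse 3760 had 0.39 in HCC 3 and 0.09 in its liver, and mouse 4033 had -0.44 in HCC 4, -0.56 in HCC 5 and -1.02 in its liver. Every tumour was above its own liver, by 0.20 to 0.67, and the signals were well above background on all arrays. The order of the mice was thus the same in tumours and livers.

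At 2 further probes HCC 1 was high and the other tissues of its mouse were not. Whether this and the other differences at single probes come from the mixed background or from the identity of samples was not tested. The probe with no gene name at chr15:80057030-80057089 had 1.49 in unaffected liver 2 and 1.81 in unaffected liver 3, and 1.67, 2.06 and 2.29 in HCC 3, HCC 4 and HCC 5. In mouse 3151 it was -0.24 in the liver and -0.14 in HCC 2, but 1.14 in HCC 1, where both arrays were high (1.21 forward and 1.07 swap). The Cyb5r3 probe, in the gene of a cytochrome b5 reductase, had 2.25 and 3.05 in unaffected livers 2 and 3, and 2.63 in HCC 3 and 3.72 in HCC 5. HCC 4 was at 1.21, and mouse 3151 had 1.10 in HCC 1, -0.20 in HCC 2 and 0.17 in the liver. In HCC 4, HCC 5 and unaffected livers 2 and 3 the reference signal of this probe was not well above background on any array, so its values there are bounds too and their differences are not interpreted. Normexp correction gave 0.55 in HCC 4, 1.26 in HCC 5 and 0.62 and 0.91 in these livers, and left HCC 1 at 1.09.

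The remaining 5 of the 9 probes lay at Cct5, AK053274, Snx31, AK034246 and AK006856. The Cct5 probe was low in both livers and all tumours of mice 3151 and 4033, from -0.40 in HCC 1 to -2.08 in HCC 2, and was 0.35 and -0.29 in HCC 3 and unaffected liver 2. HCC 1 had -1.32 on the forward array and 0.51 on the swap there. At AK053274 HCC 2 had -3.22 on the forward array and 1.07 on the swap, and the tissue signal was not well above background on any array of HCC 1, HCC 5 and unaffected livers 1 and 3. At Snx31, HCC 4 had -0.97 forward and 2.31 on the swap. The AK034246 probe was low in mice 3151 and 4033, from -0.61 in HCC 5 to -2.16 in unaffected liver 1, and was 0.26 and 0.07 in HCC 3 and unaffected liver 2. Unaffected liver 1 had -3.24 on the forward array and -1.08 on the swap there, with the tissue signal not well above background on either. The AK006856 probe was high in unaffected liver 1 alone, at 1.40, measured on 1 of its 2 arrays.

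Between mice, the Chr15 level of a tumour minus that of its own liver averaged 0.41 in the 2 tumours of the female Mad2(f/f) p53(f/+) mouse and 0.51 in the 3 tumours of the male Mad2(f/f) p53(f/f) mice. The former group is 1 mouse, and tumours of a mouse are not replicates of its sex or genotype, so the difference of -0.096 is given without a test. Tumours of 1 mouse also differed from each other, with 0.50 in HCC 1 and 0.33 in HCC 2 of mouse 3151 and 0.70 in HCC 4 and 0.54 in HCC 5 of mouse 4033.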

How the data were processed

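Genomic DNA of 8 tissues was measured on 15 two-colour Agilent arrays, on 4 slides scanned on 2 days. Per the file headers, the authors made the processed intensity values with Agilent Feature Extraction 9.1.3.1, which subtracts background, detrends and normalises the dyes within an array. The deposited series table holds log10 ratios equal to the LogRatio of the scanner files, with its sign turned on dye-swap arrays, at 100% of non-control spots. It has 0 columns of other samples and was used for that check alone.

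The log2 ratio of tissue over reference was taken from these intensities and turned on swaps. Spots with an outlier mark were dropped, spots of one probe averaged, and the autosomal median of each array set to 0, with no loess. Forward and swap arrays of a tissue were averaged and count as 1 replicate. The number of tissues limits the precision.

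The 19 autosomes, 497 bins of 5 Mb with at least 5 probes, 19971 gene names and 40720 probes were fitted by lmFit and eBayes of limma 3.58.1 (R 4.3.3, two-sided), with Benjamini-Hochberg adjustment over each family and a threshold of 0.05. This was chosen in place of the two-way analysis of variance of the study. Differences of means of single values were tested by exact permutation of the tissues. Segments were found by optimal partitioning with at least 5 probes and a penalty factor of 3, which multiplies the noise variance and the natural log of the autosomal probe count. The linear ratio is 2 to the power of the log2 level.

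The Chr15 members, the boundary at 83 Mb and the gene lists were chosen with earlier results of these data known. Named genes are Myc, the 2 largest and the smallest differences of each list, and the 5 smallest p-values and the 5 smallest differences among names with at least 2 probes. Of the 795 names, the RefSeq table for GRCm38.p6 holds 506 as symbols and 86 as synonyms. Probe sequences are those of the scanner files. HCC and liver of the same mouse are paired. After the group means were subtracted, probes of tissues from 1 mouse had r between 0.13 and 0.29, and those from different mice had r between -0.21 and 0.087.

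Alternatives were normexp background correction with offset 50 (normexp), centring on the mode or on all probes, forward arrays alone, probes well above background, mouse, slide or scan day as a block, other bins and boundaries, and leaving out each tissue. Regression on GC content, slide and scan day as fixed blocks and the values within slides and days were added after seeing the data. The limma fits were also tested on simulated data, in which shifts of 0.5 were planted. For 5 tissues against 3, limma recovered 85% of shifted autosomes (1 of 19 per set) and 62.6% of 21 bins of 497. It recovered 15.0% of 795 gene names of 19971 and 0% of 200 probes of 40720, so single genes and probes of this size were mostly missed there. The simulated noise was independent between features and the 200 probes were placed at random, whereas neighbouring Chr15 probes share their copy number. These shares therefore do not give the power for Chr15 in the data. Of 100 simulated steps of 0.42 the segmentation found 100. The scripts ran in Python 3.11.15 with scipy 1.17.1, pandas 2.3.3 and numpy 2.4.6.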

Additional observations from a re-analysis of the deposited data

Results flagged for a closer look

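Of 45 measures examined in groups of 4 to 10 tissues, 3 had a tissue far from its group, and chance alone marks about 1 in 20. The first follows from the boundary, which was taken from HCC 2, and the other two both hold the Lrp12 probe. The distal part of Chr15 minus the rest was 0.42 in HCC 2, while the other 4 HCC lay between -0.029 and 0.013. The gene mean of Lrp12 was 0.35 in HCC 3, while the other 4 HCC lay between -1.17 and -0.76. The local segment around Lrp12, relative to the Chr15 median, was 0.013 in HCC 3, against -0.91 to -0.72 in the other HCC. HCC 3 was measured on 1 array, and the liver of its mouse was at 0.05 for the same gene. The causes were not tested.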

How the results depend on the processing

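The Chr15 level kept its direction under all 25 alternatives, with a difference of 0.28 to 0.72. It no longer passed the threshold when centred on the mode (0.41, limma adjusted p = 0.051), in an exact permutation test adjusted over 19 autosomes (0.46, p = 0.17), or without an unaffected liver. Leaving out each tissue gave 0.41 to 0.50. Within slide 1 it was 0.28 and within slide 3, where tumour and liver came from different mice, it was 0.72. With mouse as the replicate block it was 0.45 (limma adjusted p = 0.0165). The distal difference reversed without HCC 2, and leaving out each tissue gave -0.0048 to 0.11. With the replicate block it was 0.062. Both describe HCC 2, from which the boundary was taken. Chr15 minus the other autosomes ranged from 0.40 to 0.51 and Chr15 minus Chr18 from 0.17 to 0.23 when each tissue was left out, and with the replicate block they were 0.44 and 0.18 (exact permutation p = 0.25 for each, the smallest possible).

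Chr15 bins that passed numbered 4. They were 8 when arrays were centred on all probes, 0 when centred on the mode, 14 on forward arrays alone, 19 with normexp, 15 with the replicate block, 21 with scan day or slide as a fixed block, 20 with slide as a random block and 9 of 11 with bins of 10 Mb. Leaving out each tissue gave 0 to 21. Breakpoints per HCC against the reference, 3.4 on average, ranged from 0.8 with normexp to 5.0 at a penalty of 2. No Chr15 gene name or probe passed under any setting. Among 28 named genes, 2 reversed, Lrp12 on forward arrays alone (-0.018) and at probes well above background (-0.27), and both on leaving out tissues, with -0.20 to 0.47 at Lrp12 and -0.19 to 0.52 at Cyb5r3. The cause was not tested in these cases. The number of tissues, all from 3 mice, limits what the tests can show, and mode centring moves the baseline of HCC 5 by 0.24.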
